A study of Mus musculus with 4 samples.

Results

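The spindle checkpoint and Aurora kinase genes described here were 10 genes found by symbol in a table of 20171 mouse genes. They were 5 checkpoint genes (Bub1b, Bub1, Bub3, Mad2l1 and Ttk), the 3 Aurora kinases (Aurka, Aurkb and Aurkc), the Polo kinase Plk1 and the passenger complex scaffold Incenp. All 10 symbols were present, and 167 of the 68012 isoforms in the isoform table were assigned to them. The genes were taken by symbol, with earlier results of these data known.

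Single cells of superovulated C57BL/6J females 6 to 8 weeks old, mated with DBA/2NCrl males according to the methods (the labels give DBA/2J x C57BL/6J), were read as full-length cDNA with unique molecular identifiers (UMIs, 1 per captured RNA molecule) on the PacBio platform by HIT-scISOseq. The groups were 10 metaphase II oocytes taken 20 h after human chorionic gonadotropin (hCG) without mating, 9 zygotes (22 to 24 h), 5 early 2-cell embryos (E2C, 30 to 32 h), 6 late 2-cell embryos (L2C, 46 to 48 h), 5 4-cell embryos (54 to 56 h), 4 8-cell embryos (68 to 70 h) and 4 16-cell embryos (78 to 80 h). Cells of the 32-cell stage (22 cells, 78 to 80 h), the early blastocyst (13 cells, 88 to 90 h) and the mouse embryonic stem cell line E14 Tg2A (mESC, 5 cells, 1 cultured line) carried no embryo name, so they are given by range and median with no test. A separate table, batch 4 of the study, held 4 intact oocytes and 12 samples of split oocytes (6 named 1/2 and 6 named 1/4).

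Each named oocyte, zygote or embryo was 1 replicate (43 in all, from 121 of 161 cells), and the level of a gene in an embryo was the mean of its cells in copies per 100,000 UMIs. Such a level is relative to the RNA captured in that cell, so a lower level and a larger total of other RNA cannot be told apart. Depth was between 4985 and 389775 UMIs per cell and between 17971 and 589926 per embryo, and the L2C embryo with 17971 UMIs was a lone cell. Oocyte, later embryo and stem cell markers were highest in or near the stages that the labels name. The summed late 2-cell markers had a median of 6.44 copies at L2C, lower than at E2C (9.84) and at the 4-cell stage (10.0). Their embryo ranges overlapped (0 to 40.2 at E2C, 4.86 to 22.5 at L2C, 5.76 to 16.1 at the 4-cell stage). These late 2-cell markers therefore do not separate L2C from its neighbouring stages. The 4 cumulus and granulosa cell markers in the table (of 7) summed to 2.27 copies at most. The names do not say which embryos shared a mother, so p-values measure the spread between these embryos.

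The spindle assembly checkpoint holds a dividing cell before anaphase until every chromosome is attached to the spindle. Ttk (Mps1) starts the signal at unattached kinetochores, Bub1 and Bub3 build the platform there, and Mad2l1 and Bub1b (BubR1) form, with Bub3 and Cdc20, the mitotic checkpoint complex that inhibits the anaphase promoting complex. Aurora A (Aurka) acts at spindle poles with Plk1, whereas Aurora B (Aurkb) and the germ cell paralogue Aurora C (Aurkc) are the kinases of the chromosomal passenger complex, which Incenp scaffolds and which corrects wrong attachments. Oocytes arrested at metaphase II carry a store of maternal mRNA, part of which is degraded around the 2-cell stage, when the embryo's own genome is activated.

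Most of the change in these genes fell at the 2-cell stage, and it did not take the same direction or the same step for every gene. Bub1b fell between zygote and E2C, Mad2l1 and Aurkc fell between E2C and L2C, Ttk rose at E2C and fell again by L2C, and Aurkb rose at L2C. Aurka, Bub1, Bub3 and Incenp did not pass the call rule at any adjacent step. A gene was called where limma on log2(copies + 1), fitted over 11682 genes, gave an absolute log2 fold change above 1 with an unadjusted p below 0.01, and adjusted p-values below are Benjamini-Hochberg values over all 11682 genes. A fold change on this scale understates the change of a gene at low level. All 10 genes passed the filter on low values.

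The share of all genes called sets the scale of each step. From oocyte to zygote 0 of the 10 genes were called by limma, beside 379 of all genes (3.24%, 2.92% higher and 0.325% lower). At an unadjusted p under 0.05 alone, a looser limit, 5 of the 10 passed. All genes were not counted at that looser limit, so the 3.24% is no background for the 5. From zygote to E2C 1 gene rose and 1 fell, with 7.27% of all genes called (4.52% higher, 2.75% lower). From E2C to L2C 1 rose and 3 fell, a step at which 48.4% of all genes were called (25.6% higher, 22.8% lower), so a share of 4 in 10 is near the background. From L2C to the 4-cell stage 1 rose (background 6.69%, 2.41% higher and 4.28% lower). From the 4-cell to the 8-cell stage limma called 0 (background 15.0%, 4.47% higher and 10.5% lower). At an unadjusted p under 0.05 alone 2 of the 10 passed, again without a count over all genes. From the 8-cell to the 16-cell stage 1 fell (background 3.36%, 1.9% higher and 1.46% lower). The median log2 fold change of the 10 genes lay between -0.41 and 0.27 at these steps, beside -0.16 to 0.11 for all genes.

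Longer intervals were compared as well. From zygote to L2C 1 gene rose and 3 fell, beside 49.5% of all genes called (29.1% higher, 20.4% lower). Bub1b fell by 4.77 on the log2 scale (SE 0.39, limma adjusted p = 2.47e-16), Aurkc by 4.04 (SE 0.31, adjusted p = 1.03e-17) and Mad2l1 by 2.15 (SE 0.27, adjusted p = 3.30e-10), and Aurkb rose by 2.59 (SE 0.38, adjusted p = 2.42e-08). From oocyte to 16-cell Aurkb and Bub3 rose and Bub1b, Aurkc, Mad2l1 and Plk1 fell, beside 50.8% of all genes called (26.8% higher, 24.0% lower). Mad2l1 fell by 2.04 (SE 0.24, adjusted p = 5.65e-11) and Plk1 by 1.03 (SE 0.29, adjusted p = 0.0018). The Plk1 call ended in 4 of 31 alternatives (a pseudocount of 5, UMIs summed over an embryo's cells, and without 16-cell embryo 2 or 4), with a log2 fold change of -0.62 at its smallest. Both shares of the members, 4 and 6 of 10, were near the background. Among the 97 isoforms tested 1 was higher and 31 lower from zygote to L2C (29.2% of all isoforms called, 14.8% higher and 14.4% lower), and 3 were higher and 35 lower from oocyte to 16-cell (31.2%, 15.8% higher and 15.4% lower).

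**Figure D1:**
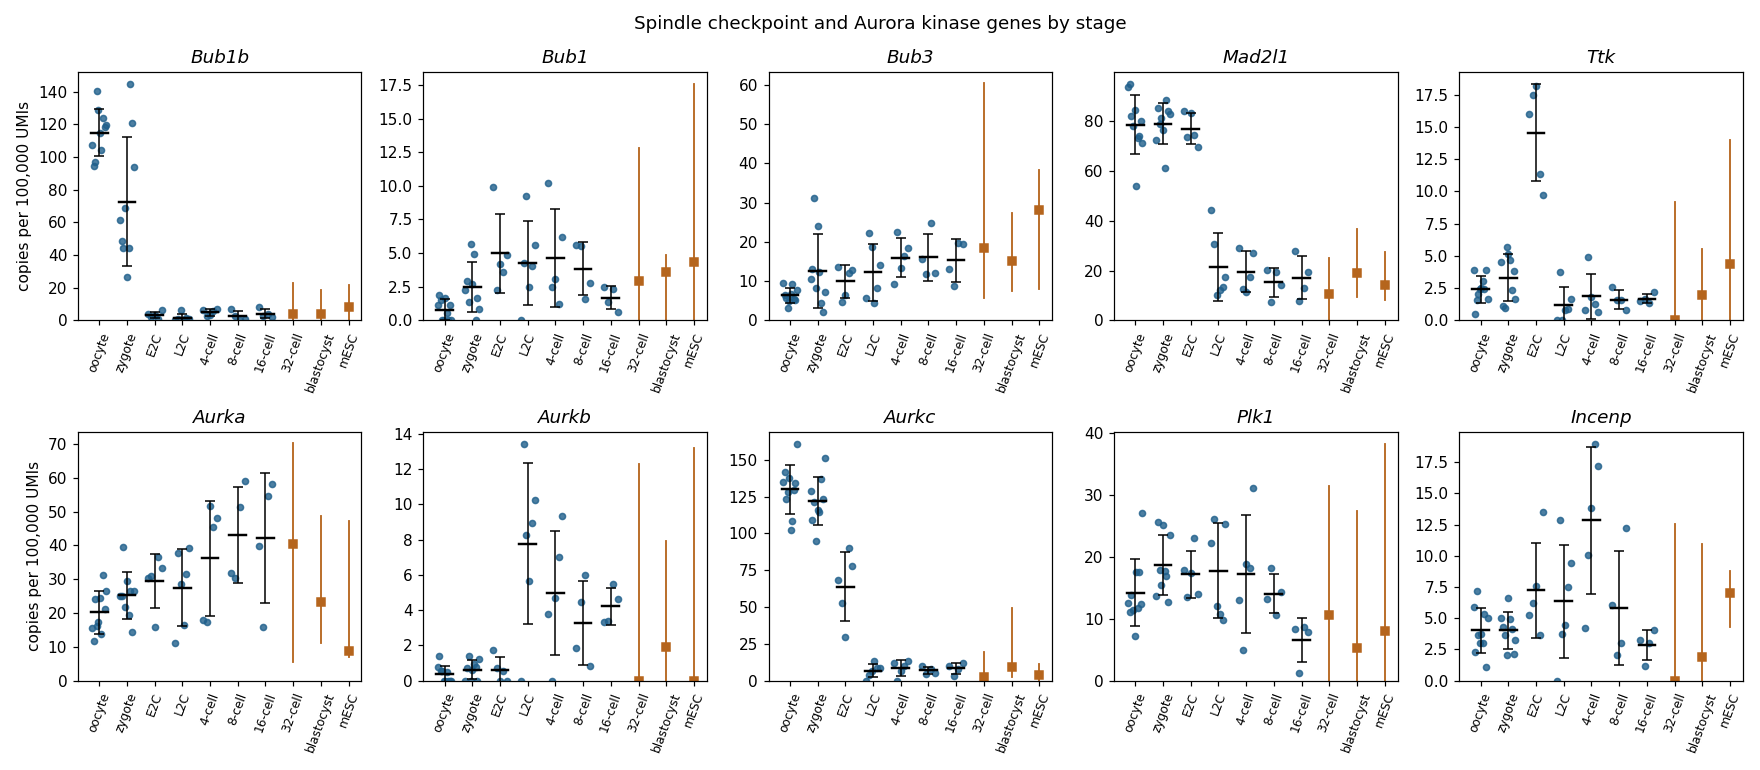
Level of each gene (y axis, copies per 100,000 UMIs, linear from 0) by stage (x axis). Points are embryos with their mean and SD for the 7 stages with named embryos, and squares with lines are the median and range over single cells for the other 3 groups. Bub1b, Mad2l1 and Aurkc sit high in oocytes and low from L2C on, Ttk has its high values at E2C, and Aurkb its highest embryo at L2C.

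**Figure D2:**
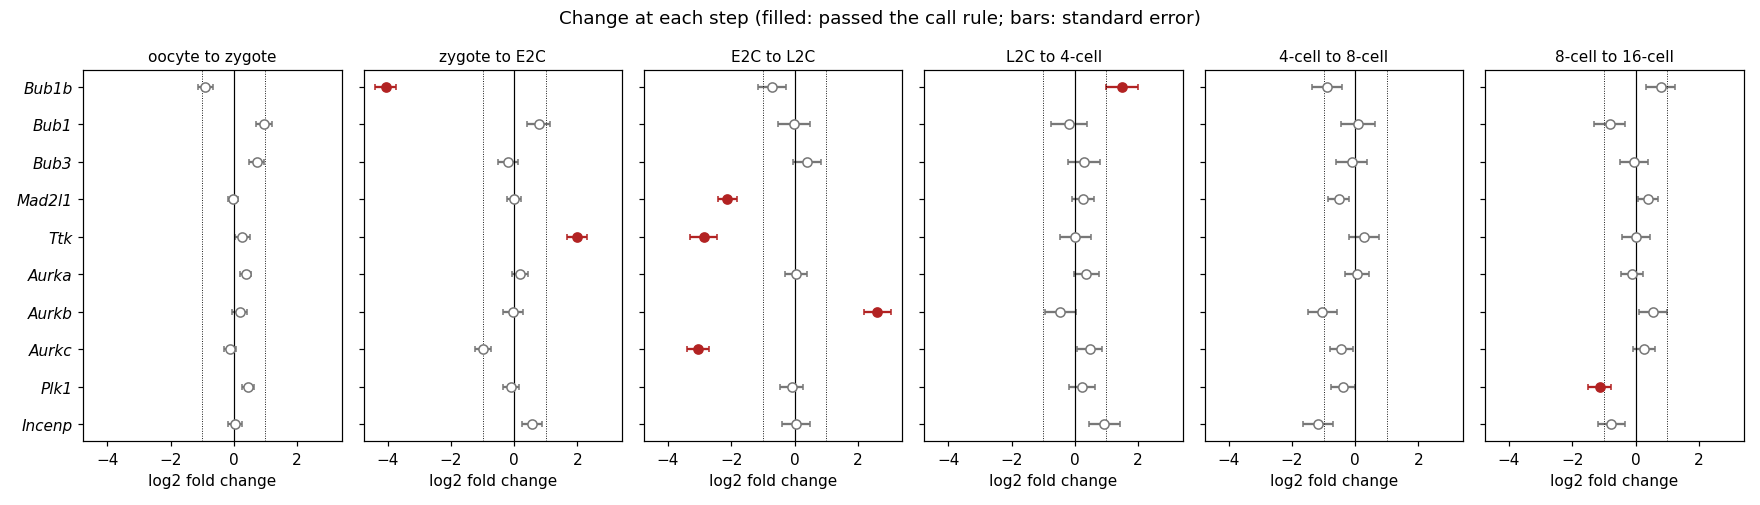
Log2 fold change of each gene at the 6 adjacent steps (x axis, log2 of copies + 1), with standard errors as bars, dotted lines at the fold limit and filled points for the 8 calls. The largest fall was that of Bub1b from zygote to E2C (-4.07) and the largest rise that of Aurkb from E2C to L2C (2.61).

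Bub1b, the BubR1 pseudokinase of the checkpoint complex (mm10, chr2:118598211-118641591, plus strand), was among the most reduced of these genes. The 10 oocytes held between 94.7 and 140 copies per 100,000 (median 117), and the 9 zygotes between 26.3 and 145 (median 61.3). The 5 E2C embryos held 3.70, 2.13, 3.06, 0.965 and 6.50 copies, so every E2C embryo was below every zygote. From zygote to E2C the log2 fold change was -4.07 (SE 0.32, limma adjusted p = 4.14e-15), from a mean of 72.7 ± 39.5 (SD, n = 9) to 3.27 ± 2.08 (SD, n = 5). Ranges of embryos lay apart in this way for 4.42% of all genes at that step.

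Bub1b stayed low afterwards. L2C embryos held 0 to 6.31 copies (median 0.738), 4-cell embryos 6.18, 2.45, 3.03, 5.47 and 6.70, 8-cell embryos 7.17, 2.63, 0 and 0.740, and 16-cell embryos 7.90, 2.81, 3.70 and 1.93. These later stages overlapped in range. The rise from L2C to the 4-cell stage passed the call rule (log2 fold change 1.48, SE 0.51, unadjusted p = 0.00478, limma adjusted p = 0.092), and it did not pass with a pseudocount of 5, in edgeR, or without any of 5 single embryos (4-cell embryos 4 and 5 and L2C embryos 2, 4 and 6). From oocyte to 16-cell the log2 fold change was -4.28 (SE 0.36, limma adjusted p = 1.83e-16), a comparison in which 50.8% of all genes were called. Single cells held 0 to 22.7 copies (median 3.94) at the 32-cell stage, 0 to 18.3 (median 3.95) in the blastocyst and 0 to 21.5 (median 7.99) in mESC.

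Zygotes differed in Bub1b by sequencing run, which was read from barcode suffixes in a supplementary list and is not in the labels. In run 1 the 4 zygotes held 44.5 to 69.0 copies and the 5 oocytes 94.7 to 140, and in run 2 the 2 zygotes held 26.3 and 44.3 beside 115 in the lone oocyte. In run 3 the 3 zygotes held 94.1 to 145 and the 4 oocytes 104 to 124. Over all runs the log2 fold change from oocyte to zygote was -0.90 (SE 0.24, limma adjusted p = 0.0055), under the fold limit. The difference of mean log2 values within a run was -1.02, -1.72 and 0.02, so the lower zygote level was present in runs 1 and 2 and not in run 3.

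Mad2l1, whose protein binds Cdc20 in the checkpoint complex (chr6:66535390-66547220, plus strand), held its level through the first cleavage. Oocytes held 54.2 to 95.1 copies (median 79.1), zygotes 61.1 to 88.8 (median 81.4), and E2C embryos 84.3, 73.5, 83.3, 74.7 and 69.7. L2C embryos held 10.3 to 44.5 copies (median 15.4), all below every E2C embryo, and the L2C embryo that was a lone cell had the 44.5. The fall from E2C to L2C was -2.13 (SE 0.30, limma adjusted p = 2.03e-08), from 77.1 ± 6.39 (SD, n = 5) to 21.4 ± 13.5 (SD, n = 6), at a step where the ranges of 27.6% of all genes lay apart.

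Mad2l1 remained detectable afterwards. It was at 29.1, 12.5, 11.3, 17.4 and 27.2 copies in 4-cell embryos, 20.1, 7.38, 19.4 and 14.2 in 8-cell embryos and 27.7, 7.68, 13.1 and 19.6 in 16-cell embryos, with overlapping ranges. Of the 38 cells of 16-cell embryos, 37 had a Mad2l1 UMI. Cells of the 32-cell stage held 0 to 25.2 copies (median 10.5), blastocyst cells 9.43 to 36.6 (median 19.0) and mESC 7.99 to 27.3 (median 14).

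Ttk, the kinase that starts checkpoint signalling (chr9:83834689-83872389, plus strand), had a short peak. Oocytes held 0.464 to 3.92 copies (median 2.42) and zygotes 0.917 to 5.67 (median 3.81). The E2C embryos held 16.0, 17.5, 18.2, 11.4 and 9.72, all above every zygote, and L2C embryos held 0 to 3.75 (median 0.844), all below every E2C embryo. The rise from zygote to E2C was 1.99 (SE 0.31, limma adjusted p = 3.98e-06), and the fall to L2C was -2.87 (SE 0.43, limma adjusted p = 7.57e-08). The mean went from 3.30 ± 1.84 (SD, n = 9) through 14.6 ± 3.79 (SD, n = 5) to 1.18 ± 1.40 (SD, n = 6). Both calls held under each of 31 alternative settings.

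After L2C Ttk stayed low. 4-cell embryos held 0.770, 4.90, 1.78, 1.25 and 0.622 copies, 8-cell embryos 2.54, 1.54, 1.59 and 0.770, and 16-cell embryos 1.46, 1.64, 1.38 and 2.17. The 18 UMIs in 16-cell embryos came from 13 of 38 cells, with 7, 9, 1 and 1 in embryos 1 to 4. Values below about 3 UMIs per embryo (0.509 to 3.78 copies at that stage) carry a large counting error. At the 32-cell stage 12 of 22 cells had no Ttk UMI, blastocyst cells held 0 to 5.49 copies (median 1.97) and mESC 0 to 14 (median 4.40).

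Transcripts with both the annotated start and stop codon were a minority of Ttk at its peak, with 15 of 114 Ttk isoform UMIs at E2C (13.2%, Wilson interval 8.14 to 20.6%), 2 of 35 in oocytes and 1 of 46 in zygotes. The full-splice-match isoform PB.77127.3 (22 exons, 2915 nt) held these UMIs, and its level rose by 1.5 on the log2 scale from zygote to E2C (SE 0.25, limma adjusted p = 1.5e-05 over 29409 isoforms). The most abundant Ttk isoform was PB.77127.51, which starts inside the gene (7 exons, 1124 nt, chr9:83862449-83872391). It rose by 2.47 (SE 0.34, adjusted p = 3.45e-07) to 11.4 ± 3.03 copies (SD, n = 5) and fell by 2.81 (SE 0.45, adjusted p = 1.15e-06) to L2C. Both are from the same limma fit over isoforms.

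Bub1, the kinase that recruits the other checkpoint proteins to kinetochores (chr2:127801122-127831865, minus strand), was scarce in oocytes, where 4 of 10 had no UMI. The oocyte range was 0 to 1.86 copies (median 0.814) and the zygote range 0 to 5.67 (median 2.27). E2C embryos held 9.93, 2.29, 4.22, 3.58 and 4.83 copies, L2C embryos 0 to 9.28 (median 4.15), 4-cell embryos 10.2, 2.45, 3.09, 1.23 and 6.17, 8-cell embryos 5.57, 5.50, 1.59 and 2.74, and 16-cell embryos 2.48, 1.35, 2.30 and 0.628. Neighbouring stages overlapped throughout. The difference from oocyte to zygote was 0.96 (SE 0.26, limma adjusted p = 0.0077), under the fold limit. Within runs 1, 2 and 3 it was 1.12, 0.82 and 0.34. Single cells held 0 to 12.8 copies (median 2.88) at the 32-cell stage, 0 to 4.88 (median 3.56) in the blastocyst and 0 to 17.6 (median 4.30) in mESC.

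A Bub1 isoform that ends early was found in oocytes and zygotes, on few molecules. Isoform PB.43799.87 holds the first 9 exons and the start codon and ends at chr2 position 127819317, before the stop codon. It made up 4 of 8 Bub1 isoform UMIs in oocytes (50%, Wilson 95% interval 21.5 to 78.5%) and 15 of 23 in zygotes (65.2%), and 0 of 9 at E2C, 0 of 13 at L2C and 0 of 19 at the 4-cell stage. At the 8-cell stage 0 of 14 UMIs were of this isoform, at the 16-cell stage 0 of 11 and at the 32-cell stage 0 of 14. By run it was 3 of 4, 1 of 2 and 0 of 2 oocyte UMIs and 9 of 14, 5 of 8 and 1 of 1 zygote UMIs. The test of its share from zygote to E2C did not pass (limma adjusted p = 0.28). Ends before the stop codon were not particular to those stages, since PB.43799.80 (13 exons, 1769 nt, end at 127814499) and PB.43799.91 (8 exons, 1004 nt, end at 127821598) also lack it. PB.43799.80 held 6 of 13 Bub1 isoform UMIs at L2C, and PB.43799.91 held 4 of 19 at the 4-cell stage. The stop codon was held by 34.8% of Bub1 isoform UMIs in zygotes, 100% at E2C (9 of 9), 46.2% at L2C (6 of 13) and 73.7% at the 4-cell stage. A window of 30 bases at or before the main Bub1 end and the end of PB.43799.87 is shown to compare them. Both are read 5′ to 3′ from GENCODE vM21 (GRCm38) transcripts. A poly(A) signal hexamer is in capitals where AATAAA or ATTAAA lies within 50 bases of the end.
Bub1, end after the stop codon (chr2:127801122-127801151): taaaaaaAATAAAgcccatatgatataccc
Bub1, end of PB.43799.87 before the stop codon (chr2:127819317-127819346): atatgaaaaggaaagaagcaaatgcttttg
The end of PB.43799.87 has neither hexamer in that window, and 11 of the 20 transcript bases after it are A, a base composition at which an oligo-dT primer can also anneal within a transcript. The part of such priming in these reads was not tested.

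Bub3, the WD-repeat partner of Bub1 and Bub1b (chr7:131560222-131571895, plus strand), was at 3.10 to 9.38 copies in oocytes (median 6.08) and 2.12 to 31.2 in zygotes (median 10.4). E2C embryos held 13.6, 4.58, 6.44, 12.1 and 12.9 copies, L2C embryos 4.48 to 22.2 (median 11.1), 4-cell embryos 9.29, 22.5, 13.3, 16.3 and 18.4, 8-cell embryos 15.7, 11.8, 24.7 and 12.1, and 16-cell embryos 13.0, 8.70, 19.8 and 19.6. No adjacent step was called. From oocyte to 16-cell Bub3 rose by 1.03 on the log2 scale (SE 0.36, limma adjusted p = 0.0099), a call that did not pass in 6 of 31 alternative settings (a pseudocount of 5, edgeR, DESeq2, and without 16-cell embryo 1, 3 or 4). The oocyte to zygote difference was 0.72 (SE 0.24, limma adjusted p = 0.031), and within runs it was 1.17, 1.26 and -0.56. Single cells held 5.64 to 60.4 copies (median 18.5) at the 32-cell stage, 7.45 to 27.4 (median 15.1) in the blastocyst and 7.99 to 38.2 (median 28.0) in mESC.

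Bub3 ended mainly at a pair of sites. The distal site held 24 of 107 Bub3 isoform UMIs in oocytes (22.4%, Wilson interval 15.6 to 31.2%), 30 of 269 in zygotes (11.2%), 9 of 65 at E2C (13.8%), 1 of 71 at L2C (1.41%, interval 0.249 to 7.56%) and 8 of 121 at the 16-cell stage (6.61%). The mean distance from the end to the most distal end among the gene's isoforms was 621 nt in zygotes and 713 nt in L2C embryos (limma adjusted p = 0.014, 5 L2C embryos with 3 or more UMIs). That test was added after the adjacent steps had been seen, and 25.1% of 2300 genes passed it. At the adjacent steps no Bub3 end test passed, beside 0.0 to 13.0% of genes. A window of 30 bases at or before each site, from GENCODE vM21, is printed with the hexamer in capitals.
Bub3, proximal end (chr7:131571149-131571178, hexamer 36 bases before the end): AATAAAtcagagatttggaacttttaaaag
Bub3, distal end (chr7:131571866-131571895): tgtttATTAAAgttacctttgctgccagtt

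Aurkc, the Aurora kinase of germ cells (chr7:6995300-7003091, plus strand), was the other strongly reduced gene. Oocytes held 102 to 161 copies (median 132) and zygotes 94.8 to 151 (median 122). E2C embryos held 68.6, 52.9, 29.7, 89.9 and 77.8, all below every zygote, with a log2 fold change of -1.0 (SE 0.25, limma adjusted p = 0.0040) that lay just under the fold limit. L2C embryos held 0 to 13.3 copies (median 7.45), all below every E2C embryo. The fall from E2C to L2C was -3.04 (SE 0.35, limma adjusted p = 4.05e-11), from 63.8 ± 23.4 (SD, n = 5) to 6.70 ± 4.52 (SD, n = 6).

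Afterwards Aurkc was at 11.6, 0, 6.40, 10.1 and 13.4 copies in 4-cell embryos, 9.99, 4.15, 7.79 and 5.44 in 8-cell embryos and 9.81, 3.19, 7.85 and 12.2 in 16-cell embryos. From oocyte to 16-cell the log2 fold change was -3.88 (SE 0.28, limma adjusted p = 4.32e-19). Cells of the 32-cell stage held 0 to 19.4 copies (median 2.68), all 13 blastocyst cells had a UMI (2.39 to 49.4 copies, median 9.32), and mESC held 0 to 10.9 (median 3.99).

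Oocyte RNA markers were also present at low level in the late stages, and their values are given beside the low Bub1b, Aurkc and Mad2l1 levels. The median of the summed level of Zp3, Gdf9, Oosp1, H1foo and Bmp15, as a share of the oocyte median, was 3.03% at L2C, 7.29% at the 16-cell stage, 0.543% at the 32-cell stage, 7.66% in the blastocyst and 3.72% in mESC. Aurkc was at 5.64, 6.69, 2.03, 7.05 and 3.02% of its oocyte median in the same groups. Bub1b was at 0.633, 2.79, 3.38, 3.39 and 6.85%, and Mad2l1 at 19.5, 20.7, 13.2, 24.0 and 17.7%. Mad2l1 was above the marker sum in all 5 groups, Aurkc above it at L2C and in 32-cell stage cells, and Bub1b above it in 32-cell stage cells and mESC. At the 4-cell and 8-cell stages, outside these 5 groups, the marker sum had medians of 203 and 117 copies (3547 in oocytes). Aurkc had medians of 10.1 and 6.62 copies there (132 in oocytes). As a share of the oocyte median, Aurkc and Mad2l1 were above the marker sum at both stages and Bub1b below it. Oocyte markers also gave UMIs in the stem cell line, where Bmp15 alone of the 5 was at 0. The part of RNA from other wells in these values was not tested.

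**Figure D3:**
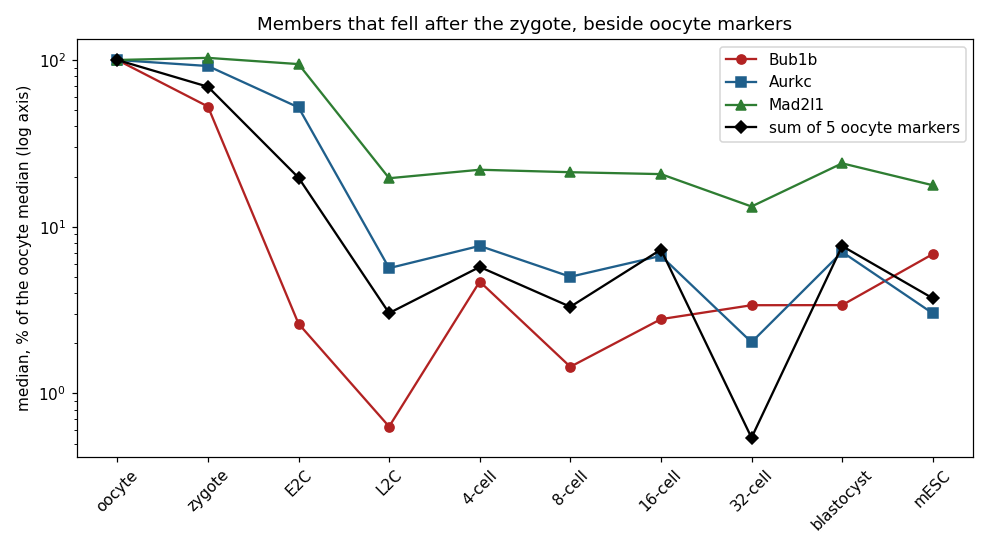
Median level as a percentage of the oocyte median (y axis, log scale) by stage (x axis) for Bub1b, Aurkc, Mad2l1 and the sum of 5 oocyte markers, over embryos to the 16-cell stage and over single cells after it. Mad2l1 levels off between 13.2 and 24.0% from L2C on, above the markers, while Aurkc lies between 2.03 and 7.67%.

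Aurkb, the Aurora kinase of somatic cells (chr11:69045647-69051664, plus strand), took the opposite course. Among oocytes 5 of 10 had no Aurkb UMI (0 to 1.39 copies, median 0.254), among zygotes 3 of 9 (0 to 1.38, median 0.721), and E2C embryos held 1.75, 0.710, 0, 0.551 and 0. A count of 3 UMIs corresponds to 1.17 to 1.80 copies in an oocyte, so these levels are at the limit of detection. L2C embryos held 0 to 13.4 copies (median 8.60), and the L2C embryo at 0 was the lone cell with 17971 UMIs. The other 5 held 5.65 to 13.4, above every E2C embryo. From E2C to L2C Aurkb rose by 2.61 on the log2 scale (SE 0.43, limma adjusted p = 4.93e-07), from 0.601 ± 0.715 (SD, n = 5) to 7.76 ± 4.58 (SD, n = 6).

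Later values were 3.76, 0, 4.67, 7.02 and 9.36 copies in 4-cell embryos, 1.87, 4.45, 5.99 and 0.801 in 8-cell embryos and 3.33, 3.38, 5.46 and 4.66 in 16-cell embryos. The difference from 4-cell to 8-cell was -1.05 (SE 0.46, limma adjusted p = 0.12) and was not called. From oocyte to 16-cell Aurkb rose by 1.81 (SE 0.34, limma adjusted p = 5.62e-06), every 16-cell embryo above every oocyte, as ranges lay apart for 39.6% of all genes. At the 32-cell stage 12 of 22 cells had no UMI (0 to 12.3 copies), and cells held 0 to 7.90 copies in the blastocyst (median 1.88) and 0 to 13.2 in mESC (median 0). The full-splice-match isoform PB.11871.1 (8 exons, 2083 nt) held 18 of 35 Aurkb isoform UMIs at L2C, and it rose by 2.06 (SE 0.42, limma adjusted p = 8.96e-05 over isoforms).

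Counted together, UMIs of Aurkb and Aurkc, the kinases of the passenger complex, came to about equal numbers at the late 2-cell stage. Aurkb had 8 UMIs in oocytes beside 2624 of Aurkc (0.304% of both, Wilson interval 0.154 to 0.599%), 0.533% in zygotes and 0.924% at E2C. It made up 53.9% at L2C (55 UMIs beside 47, interval 44.3 to 63.3%), 38.2% at the 4-cell, 26.3% at the 8-cell and 35.5% at the 16-cell stage. In 32-cell stage cells the share was 52.4% (interval 37.7 to 66.6%), in blastocyst cells 18.6% (11.8 to 28.1%) and in mESC 50% on 8 UMIs. These are shares of UMIs, not divided by transcript length, and the intervals cover counting error only.

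Aurkc isoforms differed in their first exon and in the start codons they held. The main isoforms PB.65203.5 and PB.65203.2 began near each other (6995364 and 6995309), and their first exons ended at 6995548 and 6995712. All 33 Aurkc isoforms held the annotated stop codon. In 4 of them the first exon ends at chr7 position 6995548 and held an upstream start codon (position 6995443). These 4 also held the start codon of exon 2 (position 6996279). Another 21 held the exon 2 start codon without the upstream ATG in such a first exon, and 8 held neither. Among the 21, PB.65203.31 and PB.65203.59 had a first exon that ends at 6995548 but begins after the upstream ATG (at 6995452 and 6995463). The 21 were not all without the upstream ATG. PB.65203.2, PB.65203.7 and PB.65203.3 held it in first exons that end at 6995712, 6995834 and 6995525. Both start codons are in the same frame, 39 codons apart with 0 stop codons between them, in the GENCODE vM21 transcript Aurkc-201. The coding stretch between them in that transcript is shown because it is what the upstream start would add there, with both ATG codons in capitals.
Aurkc, upstream to exon 2 start codon: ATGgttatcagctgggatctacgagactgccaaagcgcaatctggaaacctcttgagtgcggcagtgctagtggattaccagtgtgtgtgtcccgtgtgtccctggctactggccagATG

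The 4 isoforms with the upstream ATG in a first exon that ends at 6995548 held 972 of 2437 Aurkc isoform UMIs in oocytes (mean per oocyte 40.0% ± 3.72, SD, n = 10). This share leaves out other isoforms that hold the upstream ATG, such as PB.65203.2. The same 4 held 1117 of 2768 in zygotes and 181 of 474 at E2C (36.9% ± 5.52, SD, n = 5). They held 4 of 33 at L2C (12.1%, Wilson interval 4.82 to 27.3%), 15 of 53 at the 4-cell stage and 22 of 76 at the 16-cell stage (28.4% ± 4.70, SD, n = 4, range 22.2 to 33.3%). The lowest oocyte was at 35.4%. The isoform PB.65203.5 (7 exons, 1178 nt) held most of them. Its share was 38.1% in oocytes and 19.5% in 16-cell embryos (limma on arcsine square root shares, adjusted p = 0.0017, gene adjusted p = 0.0058), and 20.8% of 3985 genes changed a share in that comparison, which was added after the adjacent steps had been seen. No adjacent step changed an Aurkc share by this test.

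Aurka, the Aurora kinase of spindle poles (chr2:172356190-172370535, minus strand), was present at every stage. Oocytes held 11.6 to 31.2 copies (median 19.3), zygotes 14.4 to 39.4 (median 25) and E2C embryos 30.3, 31.1, 15.9, 36.6 and 33.4. L2C embryos held 11.1 to 39.3 (median 30.1), 4-cell embryos 17.8, 17.4, 51.8, 45.5 and 48.2, 8-cell embryos 31.7, 30.4, 51.3 and 58.9, and 16-cell embryos 39.8, 15.8, 54.7 and 58.1. All neighbouring stages overlapped and no step was called. From oocyte to 16-cell the difference was 0.92 (SE 0.28, limma adjusted p = 0.0032), under the fold limit. Cells of the 32-cell stage held 5.48 to 70.3 copies (median 40.4), blastocyst cells 11 to 48.8 (median 23.3) and mESC 7.01 to 47.3 (median 8.80).

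The UMIs of Aurka were divided between a pair of 3′ ends. Transcripts ended mainly at a proximal site (chr2 position 172356346) or further on at a distal site (172356191), and both classes held the whole reading frame in their main isoforms PB.45582.58 and PB.45582.4. The distal site held 57 of 336 Aurka isoform UMIs in oocytes (17%, Wilson interval 13.3 to 21.3%), 178 of 478 in zygotes (37.2%, 33.0 to 41.7%) and 91 of 188 at E2C (48.4%, 41.4 to 55.5%). It held 42.6% at L2C, 54.3% at the 4-cell, 59.6% at the 8-cell and 52.3% at the 16-cell stage, and 56.7% in 32-cell stage cells, 68.8% in blastocyst cells and 81.3% in mESC (13 of 16 UMIs). Per embryo the share was 7.14 to 34.0% in oocytes and 51.2 to 57.4% in 16-cell embryos. These shares are given as a description. The mean distance of the end from the most distal end among the gene's isoforms went from 165 to 75.7 nt between oocyte and 16-cell (limma adjusted p = 0.33). Between zygote and L2C it went from 247 to 93.4 nt (limma adjusted p = 0.27), and neither test passed. This mean also counts an internal end at 172363745, 7555 nt away, with 1 of 336 UMIs in oocytes and 9 of 478 in zygotes. These tests therefore do not isolate the division between the proximal and distal sites.

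Within runs the distal share of Aurka was 14.6% in oocytes and 44.4% in zygotes of run 1, 34.0% and 47.0% in run 2, and 13.8% and 21.8% in run 3. These pooled shares were higher in zygotes in each run, by the most in run 1. There the 4 zygotes (33.3 to 62.7%) lay above the 5 oocytes (7.41 to 24.1%). Run 2 had 1 oocyte beside 2 zygotes. In run 3 the ranges of the 4 oocytes (7.14 to 21.4%) and 3 zygotes (17.9 to 24.1%) overlapped. The isoform PB.45582.4 rose by 1.28 on the log2 scale from oocyte to zygote (SE 0.31, limma adjusted p = 0.0074, with 1.48% of 29409 isoforms called), from 2.77 ± 2.11 (SD, n = 10) to 8.07 ± 5.42 copies (SD, n = 9), and by 1.87 from oocyte to 16-cell (SE 0.43, adjusted p = 0.00025). The isoform PB.45582.58 was at 14.8 ± 6.85 copies in oocytes (SD, n = 10) and 17.4 ± 10.6 in 16-cell embryos (SD, n = 4) and was not called. The test of isoform shares did not pass at any adjacent step or from oocyte to 16-cell (gene adjusted p = 0.051, limma). A window of 30 bases at or before each Aurka end is shown from GENCODE vM21, with the hexamer AATAAA in capitals where it was found within 50 bases.
Aurka, distal end (chr2:172356191-172356220): gttaaatatatatgtataccatctacctgg
Aurka, proximal end (chr2:172356346-172356375): gtcttgtttccagtcgtctgaagcccgtgc
Aurka, minor end at 172356387 (chr2:172356393-172356422): AATAAAgatttgcatagactttgactttta

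**Figure D4:**
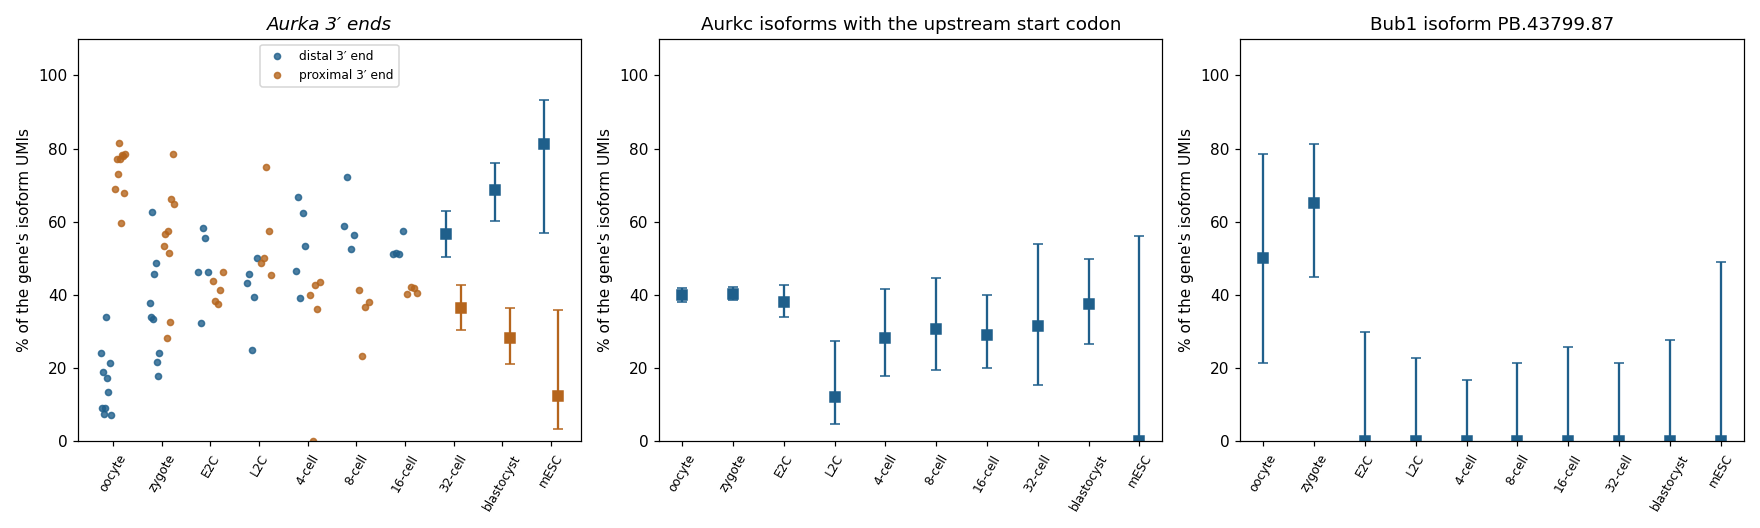
Share of a gene's isoform UMIs (y axis, %) by stage (x axis) for the distal and proximal 3′ ends of Aurka, 4 Aurkc isoforms, and PB.43799.87. The 4 Aurkc isoforms hold the upstream start codon in a first exon that ends at 6995548. PB.43799.87 is 1 of the Bub1 isoforms that end before the stop codon. For Aurka, points are embryos with 3 or more UMIs to the 16-cell stage, and squares with bars elsewhere are shares over all UMIs of a stage with Wilson 95% intervals. The distal Aurka share runs from 17% in oocytes to 52.3% at the 16-cell stage, Aurkc drops to 12.1% at L2C on 33 UMIs, and PB.43799.87 is at 0 from E2C on.

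Plk1, the Polo kinase of centrosomes, kinetochores and cytokinesis (chr7:122159439-122169873, plus strand), was level for most of the course. Oocytes held 7.2 to 27.1 copies (median 12.4), zygotes 12.7 to 25.6 (median 17.7), E2C embryos 17.9, 13.4, 17.3, 23.0 and 14, and L2C embryos 9.71 to 26.1 (median 17.1). 4-cell embryos held 13.0, 4.90, 18.8, 18.2 and 31.1, 8-cell embryos 13.1, 18.2, 10.6 and 14.2, and 16-cell embryos 8.28, 1.25, 8.72 and 7.90. Every 16-cell embryo was below every 8-cell embryo, as for 3.54% of all genes. The fall was -1.14 (SE 0.37, unadjusted p = 0.0030, limma adjusted p = 0.13). It did not pass without 16-cell embryo 2 or 8-cell embryo 2, with a pseudocount of 5 or in edgeR. Cells of the 32-cell stage held 0 to 31.5 copies (median 10.5), blastocyst cells 0 to 27.4 (median 5.31) and mESC 0 to 38.2 (median 7.99). All 11 Plk1 isoforms ended at a common site, and 47.4% of Plk1 isoform UMIs held both start and stop codon.

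Incenp, the scaffold that binds and activates Aurora B and C (chr19:9872296-9899551, minus strand), was at 1.12 to 7.2 copies in oocytes (median 3.68) and 2.06 to 6.64 in zygotes (median 4.10). E2C embryos held 5.24, 6.18, 7.60, 3.65 and 13.5, L2C embryos 0 to 12.9 (median 6.00), 4-cell embryos 4.24, 10.0, 13.8, 19.0 and 17.2, 8-cell embryos 6.02, 2.06, 3.03 and 12.2, and 16-cell embryos 3.22, 1.13, 3.05 and 4.03. The difference from 4-cell to 8-cell was -1.17 (SE 0.47, unadjusted p = 0.0154, limma adjusted p = 0.082) and was not called. The full-splice-match isoform PB.38152.6 (18 exons, 3180 nt), named here after its values were seen, was called at 3 steps. It rose by 2.31 from L2C to 4-cell (SE 0.42, limma adjusted p = 0.00052), then fell by 1.41 to 8-cell (SE 0.40, adjusted p = 0.015) and by 1.08 to 16-cell (SE 0.36, adjusted p = 0.16). Single cells held 0 to 12.6 Incenp copies at the 32-cell stage (12 of 22 without a UMI), 0 to 11 (median 1.86) in the blastocyst and 4.30 to 8.80 (median 7.01) in mESC.

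The 10 genes differed in how much of the reading frame their isoforms covered. Over all cells, isoforms with both the annotated start and stop codon held 87.6% of Mad2l1, 82.7% of Aurkc, 81.2% of Bub3, 78.9% of Aurka and 73.1% of Aurkb isoform UMIs. They held 47.4% for Plk1, 19.8% for Incenp, 16.0% for Bub1, 8.78% for Ttk and 3.65% for Bub1b (111 of 3043). Of the 23 Bub1b isoforms, 22 were incomplete splice matches, and 98.9% of Bub1b UMIs held the stop codon, so nearly all began inside the gene. The full-length Bub1b isoform PB.43301.8 has 23 exons and 3694 nt, beside 6 exons and 1681 nt for the Mad2l1 isoform PB.62444.1. Molecules cut short at the 5′ end during preparation and transcripts that start inside the gene cannot be told apart here.

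The stop codon share and the distance of the 3′ end from the most distal end among a gene's isoforms were tested. The genes tested had 3 or more UMIs in enough embryos. At the 6 adjacent steps 0 member tests passed in limma, beside 0.0 to 15.3% of genes for the stop codon share and 0.0 to 13.0% for the distance. In the longer comparisons, which were added later, the Mad2l1 stop codon share went from 99.0 to 100% between zygote and L2C (limma adjusted p = 0.024, 38.3% of genes called) and from 98.6 to 100% between oocyte and 16-cell (adjusted p = 0.040, 17.2% of genes). The values of 100% rest on 85 Mad2l1 isoform UMIs at L2C and 138 at the 16-cell stage, beside 1624 in zygotes and 1384 in oocytes. At such depth a few percent or less without the stop codon can go unseen in an embryo. These Mad2l1 tests therefore cannot separate a change in share from lower depth. The Incenp distance went from 12.4 to 51.5 nt between zygote and L2C (adjusted p = 0.016, 4 L2C embryos, 25.1% of genes). Between oocyte and 16-cell the Aurkc distance went from 2.42 to 4.02 nt (adjusted p = 0.0049) and that of Mad2l1 from 5220 to 5429 nt (adjusted p = 0.011, 19.5% of genes). The Aurkc difference is thus below 2 nt in size.

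Over the 6 adjacent steps 46 calls were made among the 97 member isoforms that passed the filter (of 167). From zygote to E2C 3 were called higher and 17 lower (5.18% of 29409 isoforms called, 2.23% higher and 2.94% lower), and the 17 were 13 Bub1b and 4 Aurkc isoforms. From E2C to L2C 2 were higher and 15 lower (background 26.0%, 12.9% higher and 13.1% lower), of which 8 lower were of Aurkc, 4 of Mad2l1 and 3 of Ttk. From L2C to 4-cell 1 was higher (background 4.29%, 2.61% higher and 1.68% lower), and from 4-cell to 8-cell 1 was higher and 1 lower (7.93%, 3.63% higher and 4.3% lower). From 8-cell to 16-cell 1 was lower (1.97%, 1.05% higher and 0.921% lower), and from oocyte to zygote 1 was higher and 4 lower (1.48%, 1.16% higher and 0.32% lower). Shares of isoforms were called for Bub1b alone, from zygote to E2C (1.33% of 5098 genes), where 4 short isoforms were at 0 at E2C. That call rests on 12 Bub1b isoform UMIs at E2C and did not hold with a minimum of 5 UMIs of the gene per embryo. The Mad2l1 isoform PB.62444.34 (5 exons, 951 nt, end at chr6 position 66540088), named after its values were seen, held a mean of 0.072% of Mad2l1 UMIs per oocyte (1 of 1384 UMIs) and 9.77% per 16-cell embryo (7 of 138 UMIs, or 5.07%, with single embryos at 1.08 to 15.4%; limma on shares, adjusted p = 0.00087, comparison added after the adjacent steps). It also rose by 1.01 in level from E2C to L2C (SE 0.37, limma adjusted p = 0.030), while the 2 main isoforms PB.62444.1 and PB.62444.7 fell by 2.89 and 2.45.

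The start regions of 8 of the 10 genes were in the RefSeq promoter table (GRCm38.p6, 250 bases before to 50 after the start). The letters TTTGAA, in either orientation, occurred in those of Bub1b, Bub3, Ttk, Aurka and Plk1 (5 of 8), beside 17.9% of 32851 promoter windows of the same length. Members are counted by gene and the background by window, here and for CCAAT below. A gene can have several windows, as Bub3 did, so these shares are of unlike units. TTTGAA is the core of the cell cycle gene homology region, an element bound by the DREAM and MuvB complexes in cell cycle genes. CCAAT, in either orientation, occurred in 7 of 8 (37.4% of all windows), and the motifs did not overlap. The windows of 30 bases that hold the letters are printed with the match in capitals, each on the strand of its gene, since these are the letters the genes share.
Bub1b (chr2:118598231-118598260): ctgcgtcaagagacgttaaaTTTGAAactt
Bub3 (chr7:131560315-131560344): gagccgttggcgTTCAAAatcagccaatga
Ttk (chr9:83834684-83834713): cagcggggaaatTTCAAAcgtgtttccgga
Aurka (chr2:172370521-172370550): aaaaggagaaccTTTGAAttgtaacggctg
Plk1 (chr7:122159453-122159482): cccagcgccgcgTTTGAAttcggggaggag
These 5 genes did not share a course over the stages (Bub1b fell at E2C, Ttk rose there, Plk1 fell at the 16-cell stage and Bub3 and Aurka were not called at any step). A match of letters is not a measured binding site.

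Across the 7 stage means, the genes with the course most like each member were found among 3877 genes of at least 10 copies in their highest stage, by the Pearson correlation of log2(copies + 1), as a description. For Bub1b they were Lamtor3, Blvra and Dguok (0.99 each), for Mad2l1 Arl3, Fnbp1l and Oosp2 (1.0 each), for Aurkc Bpgm, Vta1 and Fam90a1a (1.0 each) and for Aurkb Gtf3c6 (1.0), Tmed4 and Pdzd11 (0.99 each). For Ttk they were Olfr976 and Gm43303 (0.97 each) and Mea1 (0.94). For Aurka they were Ndufa8, Sgf29 and Ndufb3 (0.99, 0.99 and 0.98), and for Plk1 Arrdc1, Tcea1 and Nin (0.98, 0.92 and 0.92). For Bub1 they were Dedd, Fiz1 and Wdtc1 (0.97, 0.96 and 0.94), for Bub3 Scamp3, Nasp and Sirt6 (0.96, 0.95 and 0.93) and for Incenp Atad2b, Suds3 and Mob1b (0.97, 0.94 and 0.93). With 7 points, all from the same libraries, many genes reach such values.

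The wider machinery was followed in a list of 74 other spindle and kinetochore genes, of which 73 were tested. From oocyte to zygote 3 rose and 0 fell, where 2.92% of all genes were called higher and 0.325% lower. Among them were Cenpf, a kinetochore and centromere protein (9.76 ± 8.28 to 29.8 ± 11.3 copies, log2 fold change 1.91, limma adjusted p = 1.87e-05), and Birc5 (survivin), the passenger complex subunit (36.2 ± 29.1 to 98.2 ± 49.6, 1.58, adjusted p = 1.43e-07, n = 10 and 9). From zygote to E2C 2 rose and 4 fell (4.52% of all genes called higher and 2.75% lower). Fzr1, an activator of the anaphase promoting complex, and Spc25, an Ndc80 complex subunit, rose by 1.30 and 1.05, and the cohesin subunit Smc3 and the kinetochore protein Ndc80 fell by 3.05 and 2.23. The rises of Fzr1 and Spc25 did not pass with a pseudocount of 5, nor did that of Spc25 without E2C embryo 2 or 3 (0.79 and 0.97).

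From E2C to L2C 22 of the list rose and 11 fell, beside 25.6% of all genes called higher and 22.8% lower, with a median log2 fold change of 0.53 (0.03 for all genes). Cdk1, the mitotic kinase, went from 4.70 ± 2.00 (SD, n = 5) to 68.5 ± 26.7 copies (SD, n = 6), a rise of 3.74, and Ube2c, the E2 enzyme of the anaphase promoting complex, rose by 3.36. Nuf2, the partner of Ndc80, fell by 3.71, and Pttg1 (securin) fell by 3.59, from 1093 ± 117 to 90.9 ± 27.3. All 11 checkpoint genes of the list were tested, of which 4 rose and 0 fell.

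From L2C to the 4-cell stage 0 of the 73 were called by limma (6.69% of all genes). From the 4-cell to the 8-cell stage 3 rose and 17 fell, beside 4.47% of all genes called higher and 10.5% lower. Mad1l1, the partner of Mad2l1 at kinetochores, rose by 1.87 and the kinetochore protein Pmf1 by 1.5, and Haspin, the histone H3 kinase that recruits the passenger complex, fell by 2.89 and the microtubule depolymerase Kif2c by 2.64. From the 8-cell to the 16-cell stage 1 rose (Fzr1 by 1.16, limma adjusted p = 0.13) and 2 fell (Cenpt, which links centromere and kinetochore, by 1.35, and Prc1, of the central spindle, by 1.03), beside 1.9% of all genes called higher and 1.46% lower. Without 16-cell embryo 1 Fzr1 was at 0.64 and Prc1 at -0.86, and neither passed. Both calls also ended without 16-cell embryo 2 and without 8-cell embryo 1.

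In batch 4 oocytes were split to ask whether the amount of RNA affects the isoforms detected. The samples named 1/2 and 1/4 are pieces of oocytes, and the names do not say which pieces came from the same oocyte, so n counts pieces and the p-values may be too small. A gene was called here at an edgeR adjusted p under 0.05, a rule other than that of the stages. Of the members, 8 of the 10 genes passed the filter of edgeR (Bub1 and Aurkb did not), and 0 of the 8 were called by edgeR between 1/2 and intact or 1/4 and intact samples (0 of 2767 genes called, 0.0%, with 6.69 and 9.22% at an unadjusted p under 0.05; DESeq2 called 0 and 7 genes, none of the 8). Bub1b was at 318 ± 36.2 copies per 100,000 isoform UMIs in intact oocytes (SD, n = 4), 373 ± 62.5 in 1/2 (n = 6) and 372 ± 30.8 in 1/4 samples (n = 6). Aurkc was at 65.1 ± 7.80, 77.2 ± 9.21 and 81.7 ± 11.4, and Mad2l1 at 45.5 ± 5.58, 38.8 ± 7.83 and 38.8 ± 4.77. Ttk was at 2.55 ± 1.86, 7.35 ± 3.43 and 5.66 ± 2.95, with log2 differences from intact of 1.48 and 1.13 (edgeR adjusted p = 0.54 and 0.49). The first has an unadjusted p of 0.0057 in edgeR and would pass the rule used for the stages. The share of the 2767 genes that would pass that rule was not counted, so this has no background. Intact oocytes held 23 Ttk UMIs in all. In the isoform table of the first 3 runs the 10 oocytes held 122 ± 13.8 copies of Bub1b, 182 ± 23.8 of Aurkc and 103 ± 16.0 of Mad2l1. These tables were made separately, so the levels are set side by side and not compared.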

How the data were processed

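Full-length cDNA of single cells was amplified with the barcoded oligo-dT primers of 10x gel beads, sequenced on the PacBio platform, aligned by the authors to mm10 with minimap2 and classified into isoforms with SQANTI3 (full or incomplete splice match, or with new junctions). The authors deposited gene and isoform tables in copies per 100,000 UMIs (CPM divided by 10, from UMI counts scaled per cell). All values (100%) came back as whole UMIs within a tolerance of 0.1, and these recovered counts entered edgeR and DESeq2. The deposited batch 4 table holds counts of UMIs, and no deposited column was left out.

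Cells were averaged per oocyte, zygote or embryo named in the columns, since cells of 1 embryo are not replicates. The main test was limma 3.58.1 (trend, array weights, R 4.3.3) on log2(copies + 1) over genes with at least 1 copy in at least 4 embryos, called as in the study's methods at a log2 fold change over 1 and p under 0.01. Isoform shares were tested with limma on arcsine square roots (gene adjusted p under 0.01, isoform adjusted p under 0.05), 3′ ends with limma in embryos with 3 or more UMIs, and batch 4 with edgeR 4.0.16 (called at adjusted p under 0.05). DESeq2 1.42.0 was an alternative. The limma fit, the share test and the edgeR test of batch 4 were run on simulated data with known changes. The 10 genes and the gene lists were chosen with earlier results of these data known. Other genes named are, per step, up to 2 called in each direction with the largest change, and isoforms are named by calls and UMIs. The run of each oocyte and zygote was taken as the suffix (1 to 3) of its cell barcode in a supplementary cell list of the study. It was assumed from the spelling that this suffix is the run and that the listed cells are these columns. That list names few later cells, so later stages were not split by run. Whether runs share an embryo number is not given in the names. The tables name cells and not barcodes, so shared barcodes were not counted, and no doublet caller was run on these hand-picked cells. Wilson intervals and floors of 3 UMIs cover counting error only.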

Additional observations from a re-analysis of the deposited data

Results flagged for a closer look

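Among 100 groups of 4 to 10 samples of the 10 genes, 7 held a value set apart from the rest by Dixon's test at the 95% level, where about 5 (1 in 20) come by chance. Bub1b was at 6.31 copies per 100,000 in L2C embryo 3 and at 0 to 1.57 in the others. Ttk was at 4.90 in 4-cell embryo 2 and at 0.622 to 1.78 in the others. Plk1 was at 27.1 in oocyte 10 (7.2 to 17.5 in the others) and at 1.25 in 16-cell embryo 2 (7.90 to 8.72 in the others), and the fall of Plk1 to the 16-cell stage was not called without that embryo. In batch 4 Bub1b was at 496 copies in 1/2 sample 2 (332 to 378 in the others), and Bub1 was at 1.24 in 1/2 sample 5 and at 0.726 in 1/4 sample 4, with 0 in all the others of each group.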

How the results depend on the processing

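No call among the 10 genes reversed under any of the alternatives run. The count of gene calls at adjacent steps was 8 and stayed between 6 and 10 over the settings and between 7 and 10 without single embryos. The 10 calls of the longer comparisons stayed between 7 and 12, and between 8 and 11 without single embryos. A pseudocount of 5 lowered the calls among the other spindle genes from 65 to 38 and those among member isoforms from 46 to 14, since it shrinks changes of low values. Without single embryos these were 59 to 68 and 42 to 49. The gene count with changed isoform shares was 1, and 1 to 2 without single embryos (Ttk was added without E2C embryo 3). With at least 5 UMIs it was also 1, but the gene was Aurkc in place of Bub1b. Stop codon or 3′ end calls were 0 by limma, 1 with at least 1 UMI (Bub1b stop codon share, zygote to E2C), and 0 to 1 without single embryos (Bub3 without E2C embryo 2). Batch 4 gave 0 member calls at an adjusted p under 0.05 in edgeR and in each alternative.

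The calls that ended in at least 1 alternative were Bub1b from L2C to 4-cell (log2 fold change 0.66 to 1.88), Plk1 from 8-cell to 16-cell (-1.32 to -0.73), and Bub3 (0.74 to 1.28), Plk1 (-1.47 to -0.62) and Aurkb (0.70 to 3.02) from oocyte to 16-cell. Leaving out each L2C embryo was chosen after seeing the data.

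With the sequencing run as a replicate block, oocytes and zygotes gave 0 member calls, as without it, and 187 calls over all genes beside 349. Bub1b was at -0.71 (adjusted p = 0.040) with the block and -0.89 (adjusted p = 0.025) without it. No paired analysis was possible because embryo numbers only name embryos and pair none across stages. Depth limits Aurkb in oocytes to E2C, and Ttk and Bub1 at most stages.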
